A study of Mus musculus with 7 samples.

Results

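The immediate early genes described here are Fos, Fosb, Jun, Junb, Jund, Egr1, Egr2, Atf3, Ier2 and Ier3, the genes that cells switch on within minutes of a stimulus and that tissue dissociation is known to induce. They were chosen by name, and each of the 10 has 1 probe set with a single gene symbol on the array, so that 10 of the 19938 genes measured are described. RNA came from fluorescent pancreatic cells of mice aged 25 days, sorted from dissociated islets. All mice were on the ICR background and carried insulin-Cre together with the Rosa26-LSL-YFP reporter, in which Cre driven by an insulin promoter removes a stop cassette, so that cells with Cre activity, now or earlier, fluoresce. The weaned group held 3 mice that had been separated early, at day 18, and the suckling group 4 mice that had stayed on milk. Each mouse gave 2000 to 6000 sorted cells and 1 Affymetrix array, named here by its group and the replicate number of its label (weaned 4, 5 and 12, suckling 2, 9, 11 and 12). All levels are log2 of the deposited intensities, in log2 units, and all differences are weaned minus suckling.

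Fos and Fosb proteins pair through leucine zippers with Jun, Junb or Jund to form the transcription factor AP-1, and Atf3 belongs to the same zipper class. Egr1 and Egr2 are zinc finger transcription factors, while Ier2 and Ier3 are small proteins named after their immediate early response. Their genes are held ready for transcription and are switched on by serum response factor, CREB and kinases of the ERK, JNK and p38 families without new protein synthesis, and most of the transcripts decay quickly. In beta cells glucose and calcium entry are known to induce Fos, Egr1 and Junb. Enzymatic dissociation and flow sorting are known to do so in many tissues, so the level on an array holds what the cell did in the animal together with what it did on the bench. For the time from dissection to lysis, the sources used here give no value.

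The promoters are shown because transcription of these genes is set through a few short sites close to the start. Of the 10 genes, 8 matched a promoter in RefSeq (GRCm38.p6), and Egr1 and Ier2 did not. The 250 bases before the start of Fos (chr12:85473640-85473889, plus strand) and of Junb (chr8:84978749-84978998, minus strand) are given in full, and pieces of 30 bases are given for Fosb (chr7:19310086-19310115, minus strand) and for Egr2 (chr10:67537787-67537816, plus strand). Capitals mark TGACG, the core of a CREB site, on the strand shown (Fos, Junb and Fosb), TATAAA and the complement of GGGCGG (Fos), CCAAT (Junb) and the CArG box, the site of serum response factor (Egr2).
Fos: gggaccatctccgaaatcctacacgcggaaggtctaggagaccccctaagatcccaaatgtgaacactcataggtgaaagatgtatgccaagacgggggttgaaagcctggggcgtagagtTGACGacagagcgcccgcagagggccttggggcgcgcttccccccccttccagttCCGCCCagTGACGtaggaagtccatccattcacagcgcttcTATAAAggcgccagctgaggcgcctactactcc
Junb: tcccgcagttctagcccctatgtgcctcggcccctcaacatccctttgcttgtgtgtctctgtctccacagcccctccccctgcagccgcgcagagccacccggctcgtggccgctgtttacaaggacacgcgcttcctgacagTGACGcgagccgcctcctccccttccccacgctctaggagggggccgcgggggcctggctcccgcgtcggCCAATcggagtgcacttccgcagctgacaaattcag
Fosb: gagttgcgggTGACGcaagcgcgggggcgg
Egr2: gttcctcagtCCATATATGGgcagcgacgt
Sites were searched in the 250 bases before each start, on both strands except for TATAAA, which was read on the strand of the gene. TGACG was found in 5 of the 8 genes (Atf3, Egr2, Fos, Fosb and Junb) and in 17.8% of all 32851 promoter windows. In Fos it starts 129 and 66 bases before the start, in Junb 106 and in Fosb 60 bases before it. Within these 250 bases the CArG box was found in Egr2 alone among the 8 genes and in 1.47% of all windows. Sites farther upstream, in Fos or any other gene, were not searched. TATAAA was found in Fos alone, 33 bases before its start, and in 7.59% of all windows. GCGNGGGCG, a site of the Egr proteins, was found in Fosb, where it overlaps GGGCGG, and in 4.70% of all windows. TGANTCA, the AP-1 site, was found in 0 of the 8 genes and in 6.75% of all windows. GGGCGG was found in 6 of the 8 genes and in 32.7% of all windows, and CCAAT in 4 of the 8 and in 33.8%. These are matches of letters in a fixed window, and Egr2 had 5 windows because it has several annotated starts.

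Intensities had array medians of 14.1 to 14.9 on the linear scale, and the number of arrays limits the precision. All 12 listed beta cell markers were measured, and their mean was 9.38 to 9.49 on the weaned and 9.37 to 9.47 on the suckling arrays. No cutoff for presence was set, so that count does not test the beta cell label. Hormone and other genes of alpha, delta and PP cells were also bright, with a mean over 10 genes of 8.18 to 8.46 and 8.11 to 8.41. The mean of 20 acinar genes was 3.84, 3.81 and 5.76 on weaned 4, 5 and 12, and 7.45, 7.29, 4.08 and 4.92 on suckling 2, 9, 11 and 12, so acinar RNA differed more between arrays than any member did. Leukocyte markers averaged 3.54 to 3.70 on all arrays, although C1qa was at 7.45 to 8.21. C1qb, from the same list, was at 3.59 to 4.31. The mean of 6 ductal genes was 5.02 to 5.54 on the weaned and 5.45 to 5.92 on the suckling arrays. Of these, Krt19 ran from 3.60 on suckling 2 to 6.84 on suckling 12. Weaned 12 had neither Xist (2.52) nor the Y-linked Eif2s3y (1.80), whereas each of the other 6 arrays had one of them at 6.43 or more (member values without weaned 12 stand with Ier2 and with the member mean). In sorted cells measured in bulk, fewer cells of a type and less RNA per cell cannot be told apart. The label codes L13 and L14 run with the weaned and suckling groups, and whatever they mark cannot be told apart from the feeding difference.

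No member passed the test between the groups, and 1 weaned mouse stood above the other 6 mice in most of them. By limma, 0 of the 10 members had an adjusted p under 0.05 (0.68 to 0.969), where 3 of all 19938 genes, or 0.015%, did. At an unadjusted p under 0.05 there were also 0 members, where 7.58% of all genes passed, 4.39% higher and 3.19% lower in weaned mice. The means of 7 members were higher and those of 3 lower in weaned mice, beside 50.1% higher among all genes, and the median difference of the members was 0.35 beside 0.00047 for all genes. Groups overlapped for all 10 members, where 7.32% of all genes had groups that did not overlap. Weaned replicate 5 had the highest level of 8 members, Fos, Fosb, Jun, Junb, Egr1, Egr2, Ier2 and Ier3, whereas that array was highest for 13.5% of all genes. That mouse was singled out after the values were seen.

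**Figure D1:**
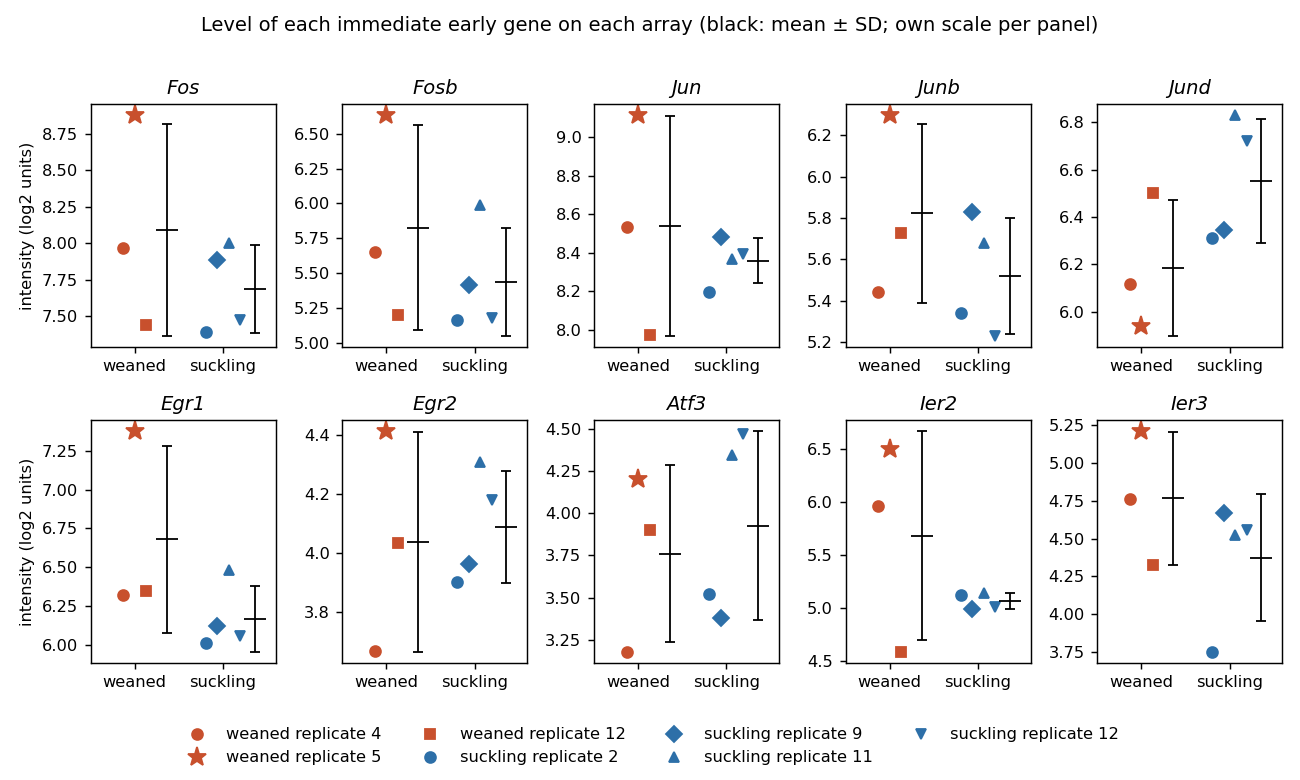
Level of each gene (log2 intensity, vertical axis, own scale in each panel) on each array, by group, with the mean and SD in black. Weaned replicate 5, the star, is the highest array in 8 of the 10 panels, the exceptions being Jund and Atf3.

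In the Fos family, both genes were highest in that mouse. Fos, the founding partner of AP-1 (probe set 10397346), was at 7.97, 8.87 and 7.44 on weaned 4, 5 and 12 and at 7.39, 7.88, 7.999 and 7.47 on suckling 2, 9, 11 and 12. Only weaned 5 lay above all suckling mice, by 0.87 log2 units over the next array, and weaned 12 lay among the lowest. The difference was 0.41 (SE 0.30, 95% interval -0.28 to 1.09, limma adjusted p = 0.798), and it was 0.014 without weaned 5. Fosb, a paralogue of Fos that is also known for a long-lived splice form (probe set 10560481), was at 5.65, 6.63 and 5.20 on the weaned arrays and at 5.16, 5.41, 5.99 and 5.18 on the suckling arrays, in the order given above. Weaned 5 was again the highest and suckling 11 the next. The difference of Fosb was 0.39 (SE 0.32, 95% interval -0.33 to 1.12, limma adjusted p = 0.825), and it was -0.012 without weaned 5.

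The Jun genes differed among themselves in which arrays were high. Jun, the Fos partner that JNK phosphorylates (probe set 10514466), was at 8.53, 9.11 and 7.97 on the weaned arrays and at 8.20, 8.48, 8.37 and 8.39 on the suckling arrays. The weaned mice held both the highest and the lowest level of Jun, around suckling values that stayed within an SD of 0.12. The difference was 0.18 (SE 0.23, 95% interval -0.33 to 0.69, limma adjusted p = 0.891), and it was -0.11 without weaned 5 and 0.46 without weaned 12. Junb, a Jun paralogue often described as a weaker activator (probe set 10580282), was at 5.44, 6.30 and 5.73 against 5.34, 5.83, 5.68 and 5.23. Here suckling 9 lay above weaned 4 and weaned 12, and the difference was 0.30 (SE 0.22, 95% interval -0.19 to 0.79, limma adjusted p = 0.79), and it was 0.066 without weaned 5. Jund, the Jun gene known for steady expression in resting cells (probe set 10572456), was at 6.12, 5.94 and 6.50 against 6.31, 6.35, 6.83 and 6.72. It was the only member with its lowest level on weaned 5, and both weaned 4 and weaned 5 lay below all suckling arrays. The Jund difference was -0.37 (SE 0.18, 95% interval -0.77 to 0.04, limma adjusted p = 0.68), and its unadjusted p of 0.0698 was the smallest of the members.

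Atf3, a stress-induced factor that mostly represses its targets (probe set 10361091), was at 3.18, 4.20 and 3.90 on the weaned arrays and at 3.52, 3.38, 4.34 and 4.47 on the suckling arrays. Suckling 11 and 12 were the highest and weaned 4 the lowest, so the pattern was not that of Fos. The difference was -0.17 (SE 0.32, 95% interval -0.89 to 0.55, limma adjusted p = 0.936). Atf3 and Egr2 gave the dimmest signal relative to background, and the lowest Atf3 value lies next to 1.80 to 3.15, the range of Xist, Eif2s3y, Uty and Kdm5d on arrays that lack these sex-linked transcripts. Differences this close to background are compressed on an array.

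Egr1, the Egr gene that answers glucose and growth factors in beta cells (probe set 10454782), was at 6.32, 7.37 and 6.35 on the weaned arrays and at 6.01, 6.12, 6.48 and 6.06 on the suckling arrays. Weaned 5 stood 0.89 log2 units above the next array, suckling 11, and the other weaned mice lay just below suckling 11 and above the other suckling mice. The difference was 0.51 (SE 0.25, 95% interval -0.05 to 1.07, limma adjusted p = 0.68), and 0.16 without weaned 5. Egr2, known best for its part in myelination (probe set 10363735), was at 3.67, 4.41 and 4.04 against 3.90, 3.96, 4.31 and 4.18. Weaned 5 led by only 0.10 and weaned 4 was the lowest array. The Egr2 difference was -0.05 (SE 0.18, 95% interval -0.46 to 0.36, limma adjusted p = 0.969).

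Ier2, a short nuclear protein induced by growth factors (probe set 10580183), had the widest difference and the widest spread of the members. Its level was 5.97, 6.50 and 4.59 on the weaned arrays and 5.12, 4.99, 5.14 and 5.01 on the suckling arrays. The suckling mice lay within an SD of 0.08, with weaned 4 and weaned 5 above all of them and weaned 12 below all of them. The difference was 0.62, or 1.53-fold (SE 0.36, 95% interval -0.20 to 1.43, limma adjusted p = 0.729). Without weaned 12 it was 1.17 (SE 0.16, adjusted p = 0.295), and without weaned 5 it was 0.21 (SE 0.32, adjusted p = 0.931). Ier3, an inhibitor of apoptosis that NF-kB induces (probe set 10444890), was at 4.76, 5.21 and 4.33 against 3.75, 4.67, 4.52 and 4.55. Suckling 2 was far below the other suckling mice. The Ier3 difference was 0.39 (SE 0.26, 95% interval -0.19 to 0.97, limma adjusted p = 0.77), and it was 0.18 without suckling 2 and 0.17 without weaned 5.

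**Figure D2:**
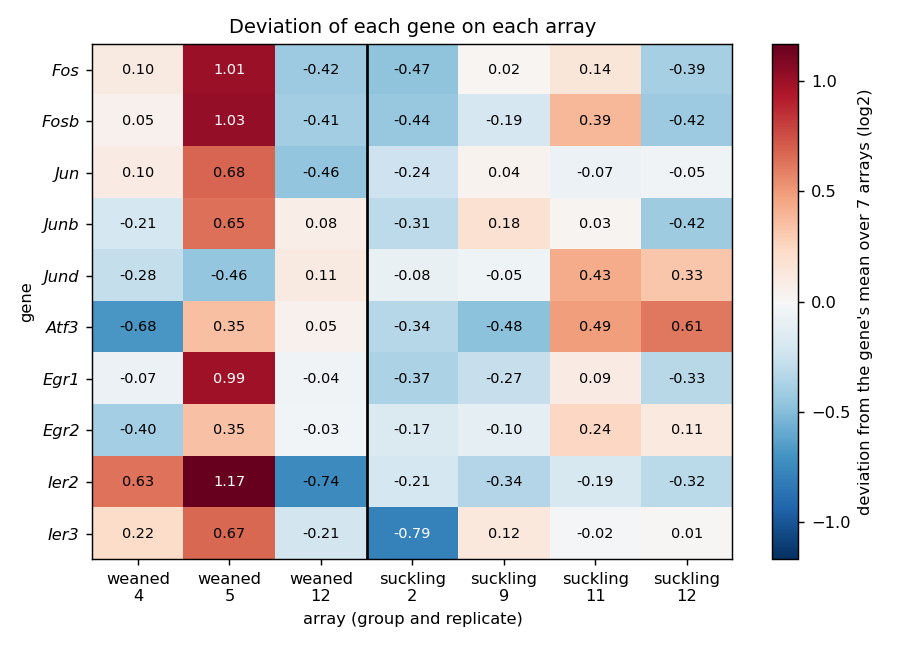
Deviation of each gene (rows) on each array (columns) from that gene's mean over the 7 arrays, in log2 units, with red above and blue below the mean. The column of weaned replicate 5 reaches 1.17 for Ier2 and is below the mean only for Jund, while suckling replicate 2 is below the mean in every row.

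Averaged over the members, the deviation from each gene's own mean was 0.64 log2 units on weaned 5. It was -0.05 and -0.21 on weaned 4 and 12, and -0.34, -0.11, 0.15 and -0.09 on suckling 2, 9, 11 and 12. The mean of weaned 4 and 12 therefore lay within the range of the suckling mice. With weaned 5 left out the median difference of the members was 0.0013 and 5 of 10 were higher in weaned mice. Without weaned 12 that median was 0.54. By limma, 5 of 10 members (Egr1, Fos, Ier2, Jun and Jund) then had an unadjusted p under 0.05. So did 1528 of all 19938 genes, and 0 members passed after adjustment. Acinar signal was lowest on weaned 5 (3.81) and highest on suckling 2 (7.45), the arrays with the highest and the lowest member mean. On weaned 4 the acinar mean was 3.84 and the member mean deviated by -0.05. With the acinar mean as a covariate the median difference of the members was 0.11, and 7 of 10 were still higher in weaned mice. The differences of Fos, Fosb and Jun were then 0.17, 0.068 and 0.017, while Junb (0.30) stayed where it was and Jund (-0.46) and Atf3 (-0.49) lay further below 0. With the mean of leukocyte, endothelial and mesenchymal markers as the covariate the median was 0.21, Jun was at 0.021, Ier3 at 0.12 and Ier2 at 0.42. The part of acinar and other RNA in the member levels was not tested beyond these fits. Xist was at 8.16 on weaned 5, 8.02 on suckling 2 and 7.70 on suckling 11 and at most 2.52 elsewhere, and its part in the member levels was not tested. Markers of other endocrine cells were also at their highest mean on weaned 5, 8.46 or a deviation of 0.15. That mean was 8.41 on suckling 2 and 8.40 on suckling 12. Of the 10 genes only 2, Gcg (12.32) and Sst (12.22), were highest on weaned 5. The beta cell marker mean was 9.49 on weaned 5, a deviation of 0.071. The part of these cells in the member levels was not tested.

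**Figure D3:**
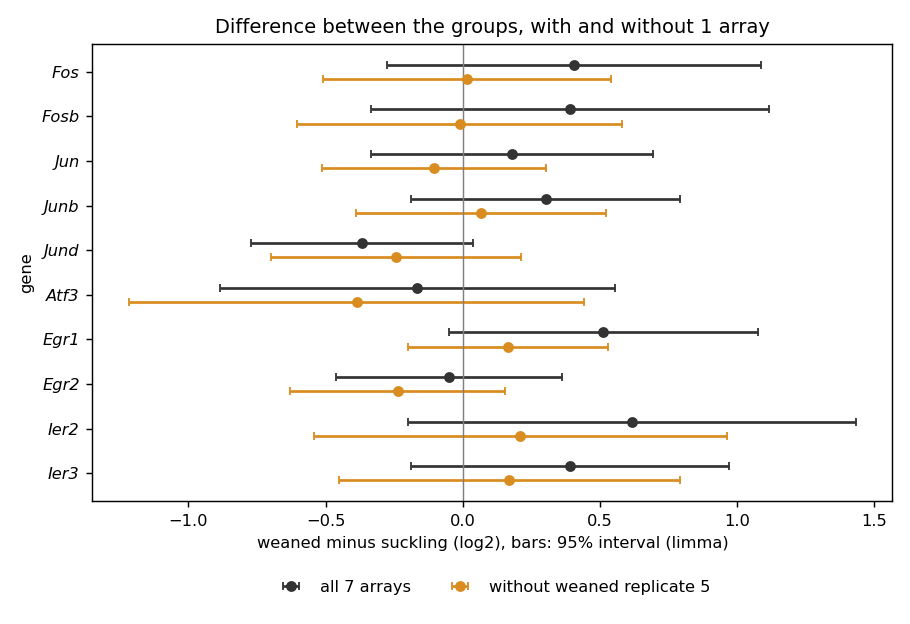
Difference between weaned and suckling mice for each gene (log2, horizontal axis) with its 95% interval from limma, for all 7 arrays in black and without weaned replicate 5 in orange. All 20 intervals include 0, and without that mouse the estimates of Fos and Fosb are 0.014 and -0.012.

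By an SD pooled over both groups, mice of the same group differed in these genes more than in most genes. Within the suckling group alone the SD ran from 0.08 for Ier2 and 0.12 for Jun to 0.56 for Atf3. The within-group SD of the members was 0.27 to 0.63 log2 units, where the median of all genes was 0.19. Of the 10 members, 8 lay above the 90th percentile of all genes by this SD, and the other two were Jund (79.6) and Egr2 (81.4). The median percentile was 96.7 and Ier2 was the highest at 99.4. Without weaned 5 the median percentile was 82.5 and 4 members were above the 90th percentile, Fosb, Atf3, Ier2 and Ier3. Egr1, Egr2 and Jun were then at 46.8, 58.2 and 63.5, and Junb, Jund and Fos at 76.5, 76.8 and 88.3. Atf3 and Ier2 were then still at 98.9 and 98.2, as measured among the other 6 mice. For Ier2 nearly all of that spread lay between weaned 4 (5.97) and weaned 12 (4.59), as the suckling SD was 0.08. The standard errors of the differences, 0.18 to 0.36 beside a median of 0.14 for all genes, follow from the pooled SD of all arrays.

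The members were also compared with Fos across the 7 mice, in 9 relations. Fosb followed Fos most closely, with Pearson's r = 0.968 (exact permutation p = 0.000397, adjusted over the 9 relations 0.00357) and Spearman's rho = 0.964 (exact permutation p = 0.00278, adjusted 0.025). Without weaned 5 and suckling 2, the arrays farthest from the Fos median, that r was 0.873. Jun (r = 0.925), Egr1 (0.911), Ier2 (0.854), Ier3 (0.840) and Junb (0.822) also passed by Pearson's r, with exact permutation p of 0.00794 to 0.0276 and adjusted p of 0.0304 to 0.0414. Their rho was 0.750, 0.786, 0.714, 0.786 and 0.536, with exact permutation p of 0.0480 to 0.236, and none of the 5 passed by rho after adjustment (0.144 to 0.303). Without the same arrays their r was 0.696, 0.414, 0.658, 0.679 and 0.295 over 5 mice. All 5 relations with Fos therefore rest in part on those arrays, and those of Egr1 and Junb largely. Of the 9 relations only 1, that of Fosb, then had an r above 0.7. Egr2 (r = 0.488, rho = 0.536), Atf3 (r = 0.151, rho = 0.143) and Jund (r = -0.574, rho = -0.214) did not pass, with exact permutation p of 0.174 to 0.808 for r and 0.236 to 0.783 for rho, and adjusted p of 0.223 to 0.808 and 0.303 to 0.783. Without the 2 arrays their r was -0.229, -0.436 and -0.263. Within-group centring, which takes the group difference out, left r at 0.962 for Fosb, 0.928 for Jun and 0.904 for Egr1. All 7 points come from separate mice but share the normalization of the arrays.

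Among the 9961 other genes with a mean level above the median, the 5 whose levels were most like the member mean over the 7 arrays were Arhgef7, Camta2, Cnnm3, Psmb6 and H6pd, with a Pearson likeness of 0.958 to 0.986. Each had its highest level on weaned 5. Their range over the arrays was 0.59 to 0.69 log2 units, less than that of any member. The likeness was picked as the highest over 7 points and is given as a description. Of the other immediate early genes listed below and ranked here, only those most like the members were looked up, after the values were seen. Dusp1, a phosphatase that switches MAP kinases off, ranked 7 with a level of 8.52 on weaned 5 and 6.80 to 7.61 on the other arrays. Btg2, an antiproliferative gene, was next with 9.13 on weaned 5 and 8.02 to 8.70 elsewhere. Ppp1r15a, which encodes the stress phosphatase subunit GADD34, ranked 22 and was at 6.10 on weaned 5 and at 5.29 to 5.81 elsewhere.

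In a wider list of 57 other immediate early genes, weaned 5 was the highest array for 17 (29.8%, beside 13.5% of all genes) and the lowest for 4. The mean deviation of the list on that array was 0.12 log2 units. By limma, 0 of 57 passed an adjusted p of 0.05. An unadjusted p under 0.05 held for 4 (3 up and 1 down in weaned mice), beside 7.58% of all genes. Groups did not overlap for 4 of the 57, beside 7.32% of all genes. The weaned mean was the higher for 37 genes, and the median difference was 0.13. Without weaned 5 that median was 0.0089 and the weaned mean was the higher for 30. Of the 3 genes with the smallest p on the weaned side, Tiparp was highest on weaned 5, and Dusp6 and Nfkbia on weaned 12. Dusp6, an ERK phosphatase, was at 5.04, 4.99 and 5.22 on the weaned arrays and at 4.57, 4.46, 4.86 and 4.29 on the suckling arrays. Its groups did not overlap and its difference was 0.53 (SE 0.15, limma adjusted p = 0.505). The groups of Nfkbia, the NF-kB inhibitor (0.30), and of Tiparp, a target of the aryl hydrocarbon receptor (0.37), did not overlap either. Plk2 (-0.54), Fbxo33 (-0.29) and Errfi1, an inhibitor of EGF receptor signalling (-0.36), had the smallest p on the suckling side, with groups that overlapped. Adjusted p of these 5 genes was 0.624 to 0.698.

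**Figure D4:**
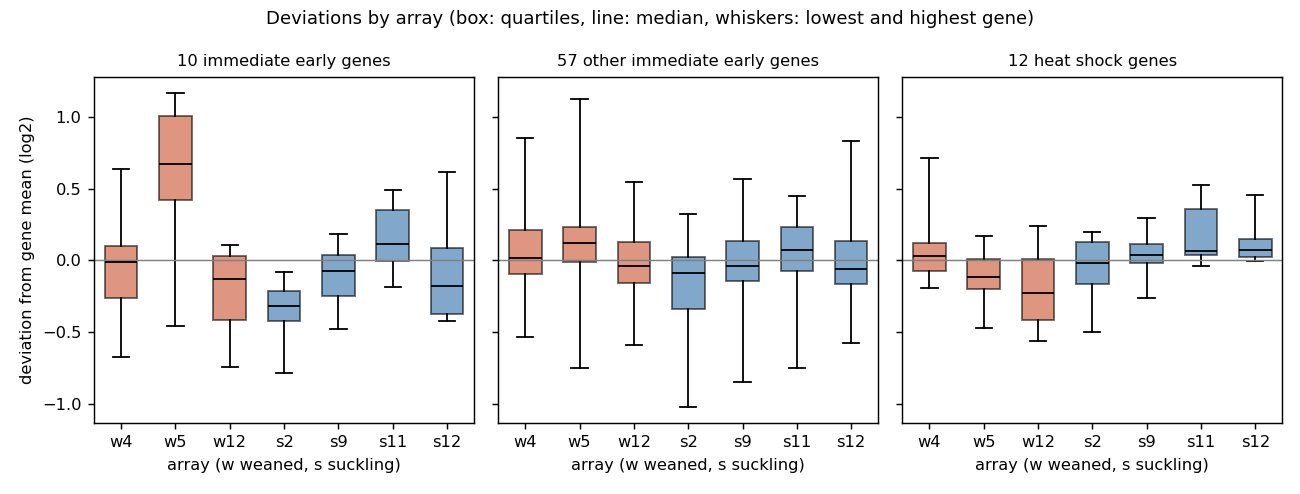
Deviation of each gene from its mean over the 7 arrays (log2, vertical axis) by array, for the 10 immediate early genes, 57 other immediate early genes and 12 heat shock genes, with boxes for quartiles and whiskers to the lowest and highest gene. The box of weaned replicate 5 stands apart in the left panel, where its mean is 0.64, and is near 0 in the middle panel, where its mean is 0.12.

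Heat shock genes are the other class of transcripts known to follow tissue handling. Of 12 measured, 0 had their highest level on weaned 5, and their mean deviation on that array was -0.11. By limma, 0 of 12 passed an adjusted p of 0.05. An unadjusted p under 0.05 held for 3 (1 up and 2 down in weaned mice), beside 7.58% of all genes. Groups did not overlap for 5 of the 12, Hspa8 (-0.26) among them, beside 7.32% of all genes. The weaned mean was the lower for 10 genes, and the median difference was -0.18. Hsph1, a cytosolic chaperone of the HSP110 family, was at 7.76, 7.48 and 7.39 on the weaned arrays and at 8.15, 8.25, 8.24 and 8.41 on the suckling arrays. Every weaned array lay below every suckling array, with a difference of -0.72 (SE 0.13, limma adjusted p = 0.225). The groups of Dnaja1, an HSP40 co-chaperone (-0.30), and of Hsp90aa1 (-0.25) did not overlap either. Their other probe sets differed by -0.34 and by -0.29 and -0.28. The Hsp90aa1 groups nearly met, at 10.81 on weaned 4 and 10.83 on suckling 2. Hsf2, a heat shock transcription factor, differed the other way (0.36) without overlap. Hspb1, a small heat shock protein, differed by 0.15, with its other probe set at -0.03. Adjusted p of these 4 genes was 0.577 to 0.921.

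The kinases and factors that switch the members on gave no call either. Of 35 measured genes 0 passed by limma. An unadjusted p under 0.05 held for 5 (2 up and 3 down in weaned mice), beside 7.58% of all genes. Groups did not overlap for 7 of the 35, beside 7.32% of all genes. The weaned mean was the higher for 22, and the median difference was 0.064. The smallest p on the weaned side belonged to Mrtfb, a coactivator of serum response factor (0.39, with its other probe sets at 0.49 and 0.29), Crtc2, a coactivator of CREB (0.29), and Map2k4, a kinase that activates JNK (0.25). On the suckling side were Map2k6, which activates p38 (-0.60), Camk2a (-0.30) and Mapk12, a p38 kinase (-0.29). The Camk2a levels of 2.96 to 3.46 reach into the background range given above.

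Proteins that can pair with the members or curb them gave no call. Of 22 measured zipper partners 0 passed by limma and 0 had an unadjusted p under 0.05, beside 7.58% of all genes. Of these partners 11 had a higher mean, and the median difference was 0.0022. Atf4, the factor of the integrated stress response (0.27), Cebpa (0.28) and Maff (0.23) had the smallest p on the weaned side. Batf (-0.30), Bach1 (-0.17) and Atf7 (-0.27, with its other probe set at 0.01) had it on the suckling side. The Cebpa levels of 3.03 to 3.82 reach into the background range given above. Of 9 coregulators 0 passed by limma, 4 had a higher mean, and 1 had an unadjusted p under 0.05, beside the same 7.58%. That gene was Nfil3, a zipper repressor, at 7.05, 6.49 and 6.90 on the weaned arrays and 6.12, 6.24, 6.55 and 5.73 on the suckling arrays (0.65, SE 0.20, limma adjusted p = 0.552). The corepressors of the Egr proteins, Nab1 and Nab2, differed by -0.16 and 0.045, Egr4 by 0.17, and the ubiquitin ligase genes Itch and Fbxw7, whose products mark Jun for degradation, by -0.27 and -0.35 (the other Fbxw7 probe set by -0.12).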

How the data were processed

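Arrays of 3 weaned and 4 suckling mice were grouped by their labels, with each mouse a replicate. The deposited intensity values, 1 per probe set and array, were made by the authors, who per the submitters' processing notes used RMA and Partek 6.6, and run from 1.45 to 12755, a linear scale, so log2 was taken. RMA shares information between arrays, and amplification of little RNA adds scatter. Of 35556 probe sets 21789 carry 1 gene symbol, and the brightest probe set stood for each of 19938 genes, with no filter. Symbols were updated by gene ID through RefSeq (GRCm38.p6). All 7 value columns were used.

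Groups were compared with limma 3.58.1 (lmFit and eBayes, R 4.3.3), two-sided, at a Benjamini-Hochberg adjusted p of 0.05 across all genes, and checked on simulated data. Correlations used exact two-sided permutation over all 5040 orders of the arrays. Further genes of each list were named by the 3 smallest p in each direction. List members not measured by a single-gene probe set (3 heat shock, 8 upstream, 1 zipper partner) were not analysed here. The members and lists were chosen with earlier results of these data known. Alternatives changed the variance model, scaling, filters, probe sets, array weights, covariates, arrays and threshold.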

Additional observations from a re-analysis of the deposited data

Results flagged for a closer look

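In 39 genes named here, the suckling arrays were searched for a mouse whose gap to its nearest neighbour takes up nearly all of the group's range, and chance gives about 1 in 20 such groups. The search found 2. Ier3 was at 3.75 on suckling replicate 2 and at 4.52 to 4.67 on the other suckling arrays, and Fbxw7 was at 7.37 on the same array and at 7.57 to 7.60 on the others. The weaned group of 3 is too small for this search, so weaned replicate 5 was not judged by it.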

How the results depend on the processing

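By limma, 0 of 10 members passed an adjusted p of 0.05 under any of 18 alternative fits, in which their adjusted p ran from 0.295 to 1. In these fits 0 to 5 members had an unadjusted p under 0.05. The 5 were found without weaned replicate 12, where 1528 of all 19938 genes had it. The filter at the median level drops Atf3 and Egr2. Of 178 member differences under these alternatives 172 kept their direction. Those that reversed were Fosb (-0.012) and Jun (-0.11) without weaned replicate 5, Egr2 (0.14) and Atf3 (0.13) without weaned replicate 4, Egr2 (0.023) without suckling replicate 11 and Atf3 (0.015) without suckling replicate 12. With 1 array left out Fosb ran from -0.012 to 0.70, Jun from -0.11 to 0.46, Egr2 from -0.24 to 0.14 and Atf3 from -0.39 to 0.13. Under the same fits 5 to 9 members were higher in weaned mice and their median difference ran from 0.0013 (without weaned replicate 5) to 0.54 (without weaned replicate 12). The median percentile of within-group SD ran from 82.5 (without weaned replicate 5) to 97.7, in fits added after seeing the data. Among all genes, the 3 calls became 9 with an intensity trend and robust prior, 5 with quantile normalization, 7 and 8 with dim genes filtered out below the 25th percentile or the median level, 5 with the mean of probe sets, 1 to 3 with 1 array left out, 0 without suckling replicates 2 and 9 (1089 genes at an unadjusted p under 0.05), and 7 at an adjusted p of 0.1. An unadjusted p under 0.05 held for 1512 genes (7.58% of all), 4 of 57 other immediate early, 3 of 12 heat shock and 5 of 35 upstream genes. The cause of these changes was not tested. No paired analysis was made because the labels name no pairs of weaned and suckling mice. Replicate number 12 occurs in both groups, but the labels do not say that it marks a pair. With arrays centred on their medians the same number of members, 6, passed the correlation with Fos.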
